A study of Mus musculus with 8 samples.

Results

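A set of 35 genes of glycolysis and of the pyruvate dehydrogenase step was taken from the deposited expression table by gene symbol, out of 54532 genes in all. They are the enzymes that carry glucose to pyruvate and lactate, the bifunctional PFKFB enzymes, the subunits of the pyruvate dehydrogenase complex, and the kinases and phosphatases that switch that complex off and on. Every one of the 35 symbols was found, and Aldoa stood on 2 lines of the table, of which the main gene was used. The tissue was inguinal white adipose tissue, the subcutaneous fat pad of the groin, from male mice fed a high-fat diet. A group of 4 libraries came from wild-type mice (WT) and the other 4 from mice with a knockout of the transcription factor KLF10 in adipocytes (KLF10AKO). All 8 libraries share the sex, the diet and the depot. The sources used here do not give the age of the mice, the promoter that drove the deletion or whether tissue was pooled. Because these are whole fat pads, fewer cells of a type and less RNA per cell cannot be told apart.

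Glycolysis splits glucose into pyruvate, which is either reduced to lactate or carried into mitochondria, where the pyruvate dehydrogenase complex turns it into acetyl-CoA. In adipocytes the same route supplies glycerol phosphate for triglyceride and acetyl-CoA for new fatty acids. Most steps have several isozymes that differ by tissue. Hk2, Pfkl, Pgam1 and Eno1 are prominent in fat and other growing or insulin-responsive tissues, Pfkm, Pgam2 and Eno3 are the skeletal muscle forms, and Hk1 and Hk3 are common in blood leukocytes, the latter in myeloid cells.

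Expression is given as FPKM, which relates the fragments of a gene to its length and to a library size set by the authors, so that levels of different genes can be compared. A log2 change is KLF10AKO minus WT on the log2(FPKM + 0.5) scale, given with its standard error, and a gene passed at a limma p adjusted over all fitted genes of at most 0.05. Reads per library ranged from 15537863 to 17499132. Klf10, the targeted gene, was at 16.7, 18.2, 16.7 and 21.1 FPKM in WT replicates 1 to 4 and at 9.39, 9.68, 9.75 and 9.59 FPKM in KLF10AKO replicates 1 to 4. The groups did not overlap, and the log2 change of Klf10 was -0.88 ± 0.08 (adjusted p = 8.96e-06), turning to 0.73 (adjusted p = 4.03e-04) when libraries were scaled to adipocyte markers.

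The groups also differed in markers of cell types. The summed FPKM of 15 adipocyte markers was 15172 to 17241 in WT and 5125 to 6461 in KLF10AKO, with Adipoq at 1811 to 2136 and 464 to 672, and 15 of 15 fell. B cell markers summed to 132 to 262 FPKM in WT and 2222 to 3154 in KLF10AKO (Cd79a 0.597 to 0.991 and 378 to 571), and T cell markers to 7.27 to 9.84 and 555 to 832 (Cd3d 0.300 to 0.775 and 35.3 to 51.8). All 12 genes of each of these lymphocyte lists rose. The 17 skeletal muscle markers summed to 195 to 244 FPKM in WT, most of it Acta1 at 160 to 213, and to 6301, 4776, 11139 and 40.3 FPKM in KLF10AKO replicates 1 to 4. Replicate 4 stood below WT on this sum, with Acta1 at 20.9 and Myl1 at 4.81 FPKM against 24.3 to 29.6 for Myl1 in WT, while the other 3 KLF10AKO libraries stood far above. Other muscle genes, chosen after their values were seen, lay above every WT library in replicate 4 as well: Tnnt3 at 3.11 FPKM (WT at most 0.634), Tnni2 at 1.85 (0.402), Mylpf at 7.68 (1.28), Atp2a1 at 0.880 (0.333) and Ttn at 0.120 (0.0105). Below every WT library in replicate 4 were Pvalb at 0.435 FPKM (WT at least 2.64), Myh4 at 0.00942 (0.0779), Mb at 0.0380 (0.0456) and Myh1 at 0.0624 (0.0643). Neb, at 0.171 FPKM (WT at most 0.146), and Myh7, at 0.0197, were also above every WT library in replicate 4. Ckm, Actn3 and Myh2 lay within the WT range there. Among the muscle markers Myh7 was at 0 in all WT libraries, and Tnnc2 was at or below 0.167 FPKM in all 8. Other lists, as WT and KLF10AKO ranges of summed FPKM with the first gene of each, were macrophage (683 to 768 and 877 to 905, Adgre1 14.1 to 14.7 and 2.89 to 9.74, with 1 gene of 10 higher and 7 lower), neutrophil (10.8 to 11.7 and 7.04 to 7.93, S100a8 7.55 to 9.84 and 1.21 to 2.04, with Ly6g at 0 in KLF10AKO) and progenitor (651 to 738 and 413 to 439, Pdgfra 6.09 to 6.81 and 3.16 to 3.61). They were also endothelium (518 to 587 and 257 to 297, Pecam1 48.5 to 53.3 and 45.3 to 50.2) and erythroid (839 to 1227 and 463 to 549, Hba-a1 312 to 458 and 160 to 191). Of the 6 neutrophil genes 4 were fitted, with 2 higher and 1 lower. Of the 8 progenitor genes 2 were higher and 6 lower. Trophoblast genes, which male fat should lack, summed to 22.1 to 59.3 FPKM in WT and 0 to 0.105 in KLF10AKO (Prl3b1 7.13 to 19.3 and 0). The part that any of these marker differences has in the changes below was not tested.

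Of the 35 genes, 34 had a mean of at least 0.5 FPKM and were fitted, Aldoc being the exception. In KLF10AKO 9 were higher, 15 were lower and 10 did not pass. The share that passed, 70.6%, lay near the 74.3% of all 16012 fitted genes, of which 39.4% were higher and 34.9% lower. Of the 34 genes 26.5% were higher and 44.1% lower, and their median log2 change was -0.24, beside 0.05 over all fitted genes. The 4 KLF10AKO values all lay above the 4 WT values in 5 genes and all below in 15, while over all fitted genes this held for 36.2% and 33%, or 69.2% in either direction. With KLF10AKO replicate 4 set alone against WT, 5 of the 34 were higher and 21 lower, with a median of -0.73, beside 32.4% and 29.7% of all genes. As TPM 9 of the 34 were higher and 14 lower, beside 44% and 25.4% of all genes, and with quantile normalization 7 and 19, beside 30.9% and 44.1%. When each library was scaled to its adipocyte markers, the median of all genes moved up by 1.51 on the log2 scale, 87.5% of all genes passed as higher and 1.19% as lower. Under that scaling 32 of the 34 were higher and 0 lower by limma (0 also at an unadjusted p of 0.05), with a median of 1.30. All 15 genes given below as lower thus changed sign under that scaling, and their log2 changes then ran from 0.05 for Pdk4 to 1.24 for Pdp1, all under the all-gene median of 1.56.

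**Figure D1:**
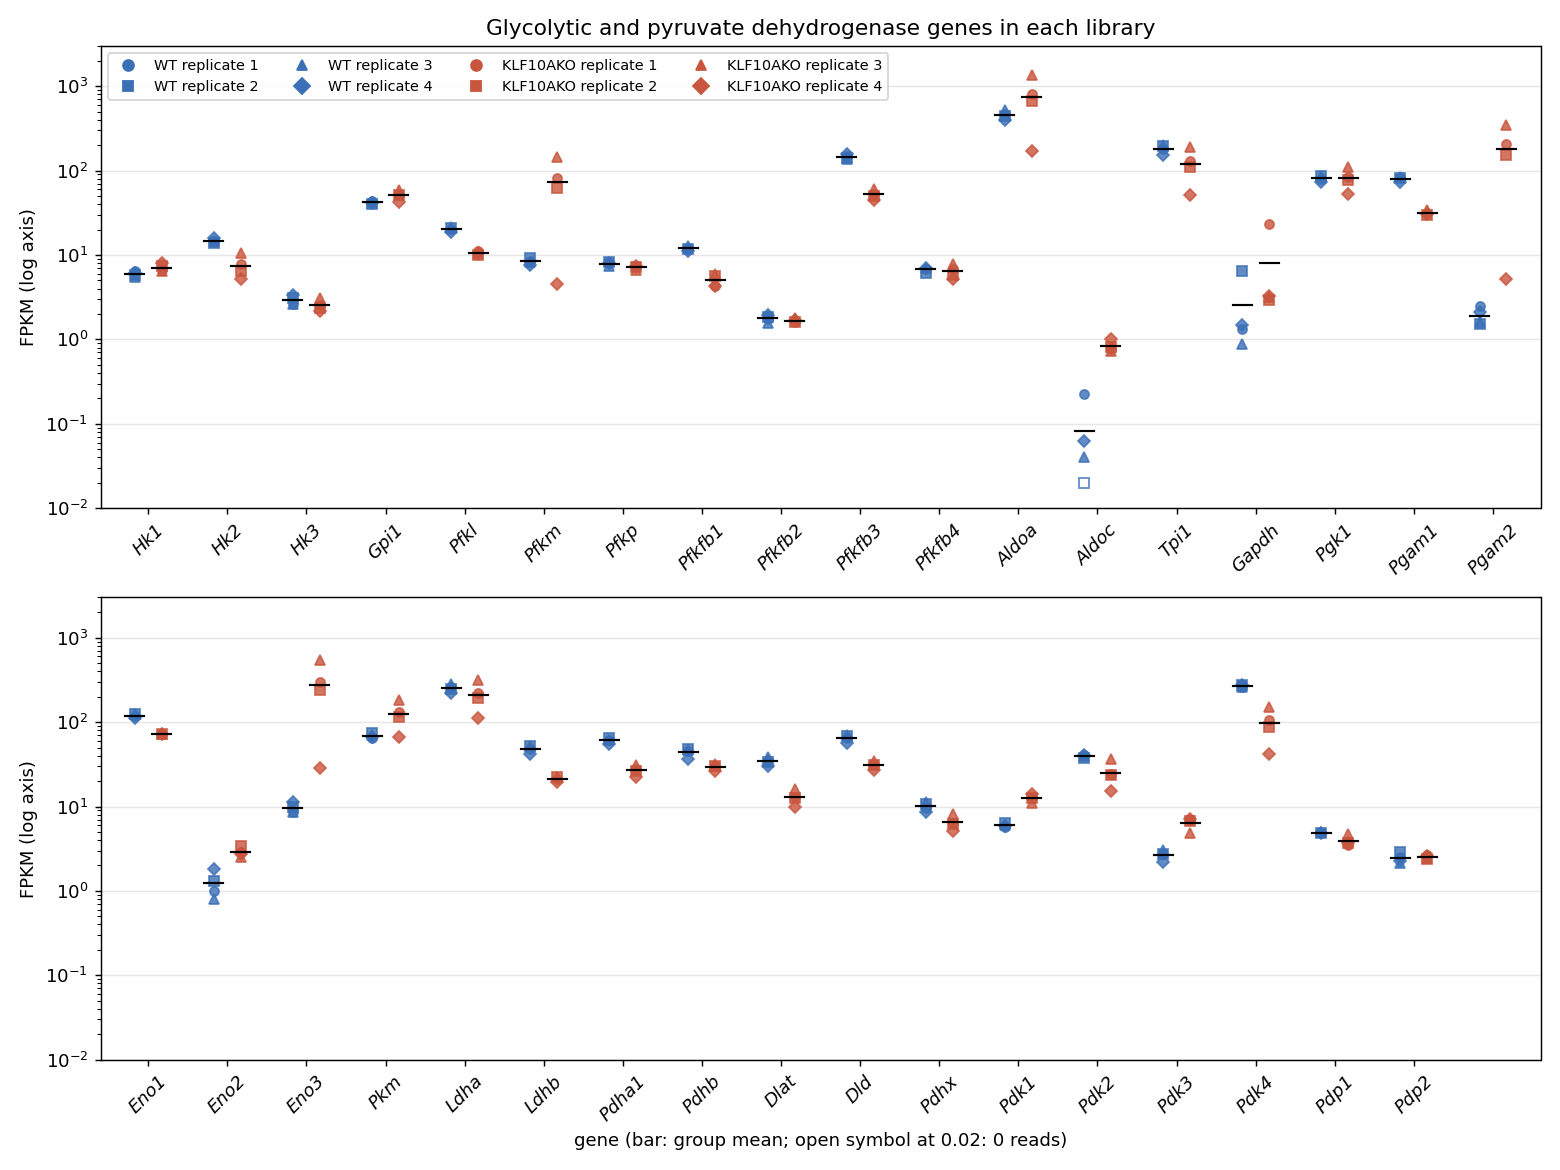
FPKM of the 35 genes (log axis) in each library, WT in blue and KLF10AKO in red, with a symbol for each replicate, a bar at the group mean and an open symbol for a library with 0 reads. The red symbols of Pfkm, Pgam2, Eno3 and Aldoa are spread widely, with replicate 4 lowest and replicate 3 highest, whereas those of Pfkl, Pgam1 and Eno1 lie close together below WT, a direction that turns when libraries are scaled to adipocyte markers.

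**Figure D2:**
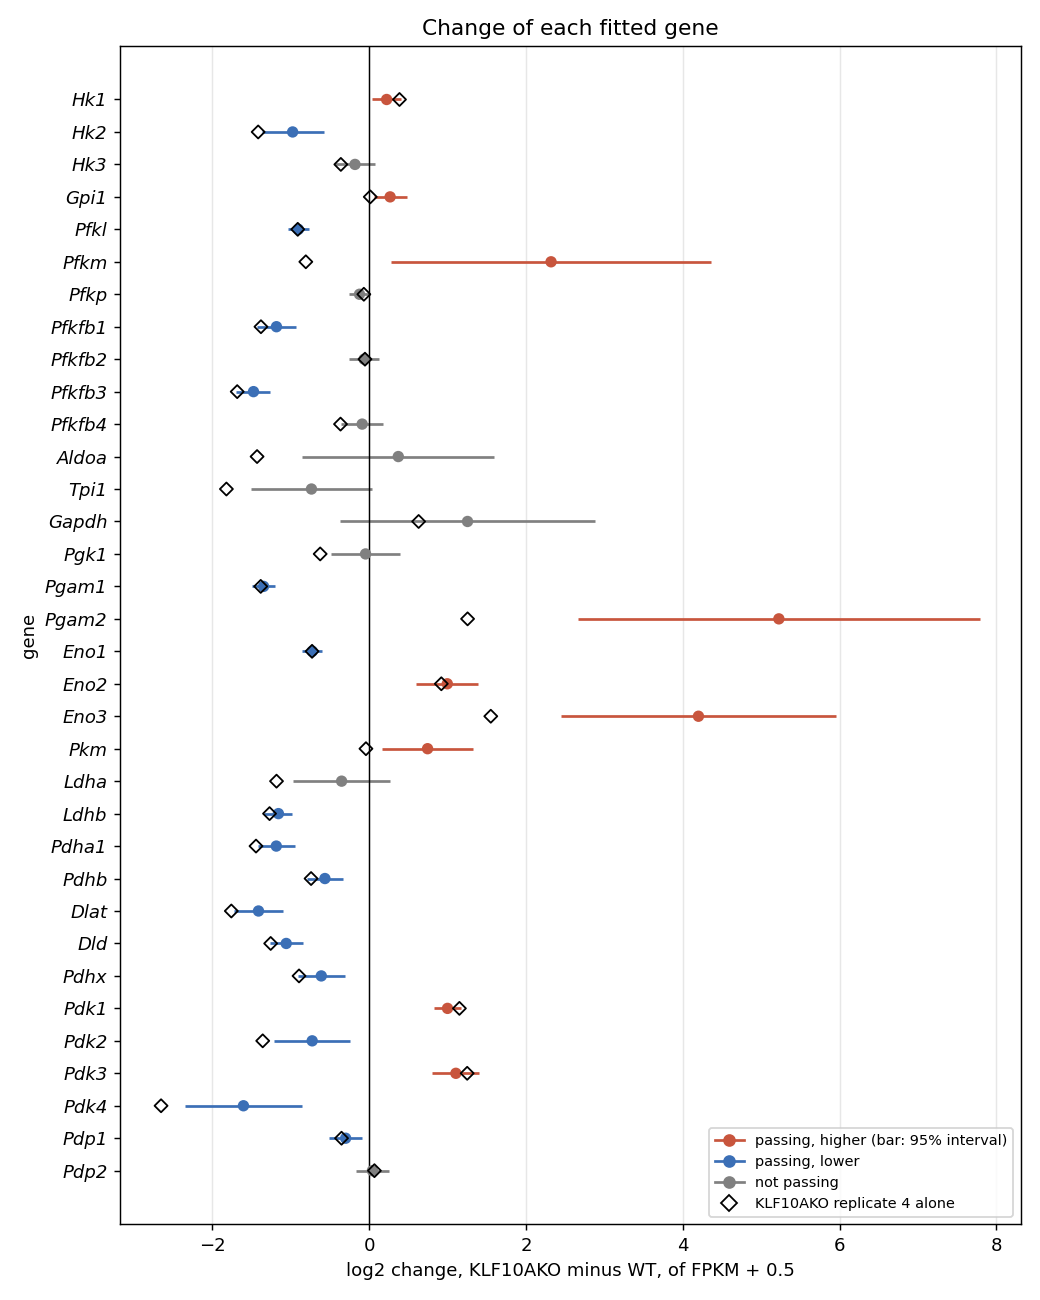
Log2 change of each of the 34 fitted genes (x axis, KLF10AKO minus WT, log2 of FPKM + 0.5) with its 95% interval, coloured by call, and open diamonds for KLF10AKO replicate 4 against WT. Pfkm, Aldoa and Pkm have a positive value with all libraries (2.32, 0.37 and 0.74) and a negative one with replicate 4 alone (-0.81, -1.43 and -0.04), and every blue point becomes positive when libraries are scaled to adipocyte markers.

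At the first step, phosphorylation of glucose by hexokinase, the insulin-responsive isozyme Hk2 was lower in KLF10AKO. Hk2 was at 14.7, 14.0, 14.6 and 15.7 FPKM in the 4 WT libraries and at 7.73, 6.48, 10.5 and 5.21 FPKM in the 4 KLF10AKO libraries. The groups did not overlap, replicate 3 being the highest of the knockouts and replicate 4 the lowest. Hk2 fell by 0.98 ± 0.17 on the log2 scale (adjusted p = 7.72e-04), and the sign turned to 0.61 with scaling to adipocyte markers. Hk1, the widely expressed isozyme, was at 6.53, 5.78, 5.55 and 6.07 FPKM in WT, against 6.59, 7.38, 6.39 and 7.96 in KLF10AKO. These ranges overlapped, with replicate 4 now the highest, and the rise of 0.22 ± 0.08 (adjusted p = 0.0359) did not pass with quantile normalization (0.02), without a filter (adjusted p = 0.0574) or without any 1 of WT replicates 2, 3 and 4 and KLF10AKO replicates 2 and 4 (0.17 to 0.23). Hk3, the isozyme of myeloid cells, did not pass (-0.18 ± 0.11, adjusted p = 0.176; -0.26 and 0.0450 without KLF10AKO replicate 3) and was at 2.65, 3.09, 2.61 and 3.35 FPKM in WT and 2.54, 2.35, 3.07 and 2.15 in KLF10AKO. As a share of the summed hexokinase FPKM, Hk2 was 62.4% ± 1.32 in WT (SD, n = 4) and 45.9, 40.0, 52.6 and 34.0% in the KLF10AKO libraries, whereas Hk1 was 25.3% ± 1.46 (SD, n = 4) and 39.1, 45.5, 32.0 and 51.9%. Hk2 was thus the leading isozyme in every WT library, and Hk1 led in KLF10AKO replicates 2 and 4. Gpi1, the isomerase of the next step, was at 40.1 to 43.3 FPKM in WT and 42.4 to 58.8 in KLF10AKO and rose by 0.27 ± 0.09 (adjusted p = 0.0271), but was at 0.01 with replicate 4 alone and did not pass without any 1 of WT replicates 2 and 4 and KLF10AKO replicates 1, 2 and 3 (0.20 to 0.27).

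At phosphofructokinase, the main control point of glycolysis, the liver-type isozyme was lower in all 4 knockout libraries and the muscle isozyme higher in 3 of them. Pfkl, the liver-type form, was at 20.3, 20.9, 21.2 and 18.7 FPKM in WT, against 11.1, 10.1, 10.6 and 10.5 in KLF10AKO. The 4 knockout libraries were alike, and Pfkl fell by 0.90 ± 0.06 (adjusted p = 1.31e-06), turning to 0.71 with scaling to adipocyte markers. Pfkm, the muscle form, was at 8.38, 9.24, 8.30 and 7.62 FPKM in WT, against 82.5, 61.5, 147 and 4.56 in KLF10AKO. Replicates 1 to 3 lay above every WT library and replicate 4 below every one. The fitted rise of 2.32 ± 0.90 passed (adjusted p = 0.0411) and was 3.36 without replicate 4 (adjusted p = 7.37e-06) and -0.81 with replicate 4 alone (adjusted p = 0.00494). It did not pass when any 1 of the other 7 libraries was left out (1.74 to 2.37), with quantile normalization (adjusted p = 0.0503) or without a filter (adjusted p = 0.0797). Pfkp, the platelet form, was at 7.93, 8.17, 7.42 and 8.06 FPKM in WT, against 7.48, 7.13, 6.73 and 7.51 in KLF10AKO and did not pass (-0.12 ± 0.06, adjusted p = 0.0847). Pfkm made up 22.9% ± 0.841 of the phosphofructokinase FPKM in WT (SD, n = 4) and 81.6, 78.1, 89.4 and 20.2% in KLF10AKO replicates 1 to 4. Pfkl made up 55.5% ± 1.39 in WT and 11.0, 12.8, 6.47 and 46.6% in the knockouts, and Pfkp 21.6% ± 1.38 and 7.39, 9.06, 4.10 and 33.2% (SD, n = 4). Replicate 4 kept Pfkl as its leading isozyme, with a larger share of Pfkp than any WT library.

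The PFKFB enzymes make and remove the sugar bisphosphate that activates phosphofructokinase. Pfkfb3, the inducible form with a strong kinase activity, was the main one throughout, at 148, 139, 139 and 158 FPKM in WT and 52.6, 50.7, 61.3 and 45 in KLF10AKO. No KLF10AKO library came near WT, and the gene fell by 1.48 ± 0.10 (adjusted p = 1.29e-06), or stood at 0.17 with scaling to adipocyte markers. Pfkfb1 was at 12.1, 11.7, 12.9 and 11.3 FPKM in WT and 4.33, 5.67, 5.88 and 4.29 in KLF10AKO, again without overlap. It fell by 1.18 ± 0.11 (adjusted p = 1.04e-05, and 0.38 with scaling to adipocyte markers). Pfkfb4 was at 6.83, 6.11, 7.07 and 7.04 FPKM in WT and 6.87, 5.76, 7.80 and 5.13 in KLF10AKO (-0.09 ± 0.12, adjusted p = 0.518; -0.37 and 0.0381 with replicate 4 alone). Pfkfb2 ranged from 1.57 to 1.96 FPKM in WT and from 1.60 to 1.78 in KLF10AKO and did not pass either. The summed PFKFB level went from 166 ± 8.77 to 65.5 ± 8.51 FPKM (SD, n = 4), and the share of Pfkfb3 from 87.6% ± 0.821 to 80.0% ± 0.378 while that of Pfkfb4 went from 4.06% ± 0.244 to 9.71% ± 0.734 (SD, n = 4).

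**Figure D3:**
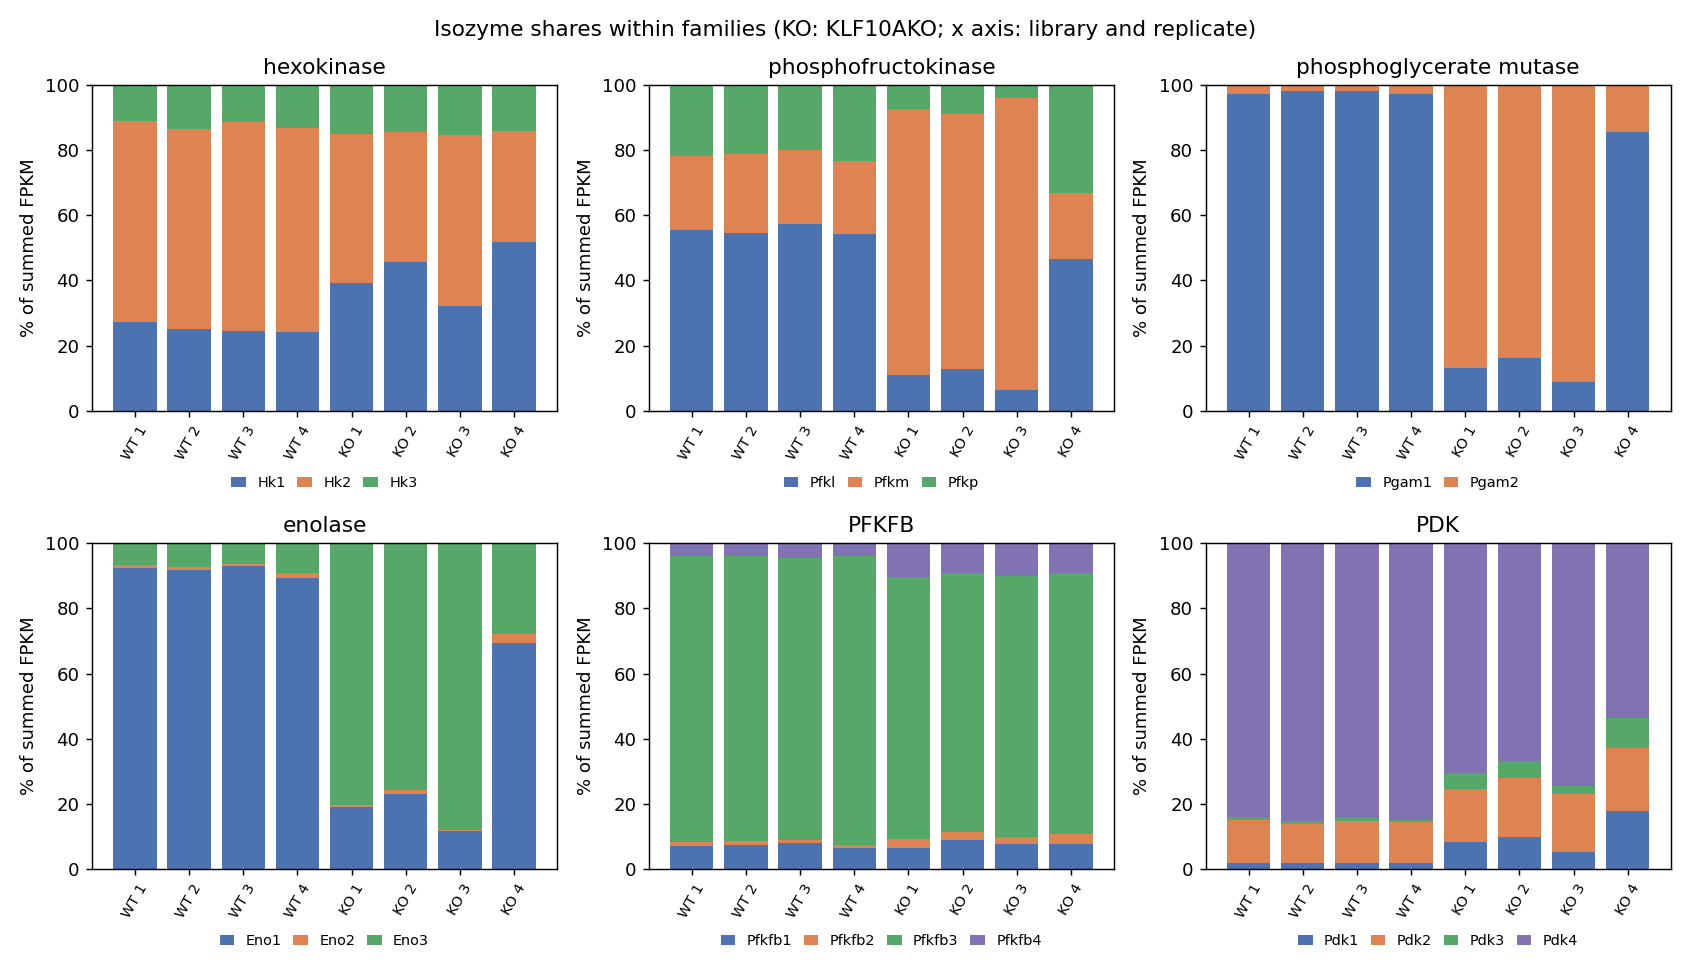
Share of each isozyme in the summed FPKM of its family (y axis, percent) in each library, for 6 families. Muscle isozymes (Pfkm, Pgam2, Eno3) take 75.8% or more of their families in KLF10AKO replicates 1 to 3 and 27.9% or less in replicate 4. Pdk4 has a smaller share in all 4 knockout libraries than in WT, at 53.7 to 74.5%, but remains the largest. The shares of Pdk1, Pdk2 and Pdk3 are larger there, although Pdk2 itself is lower in FPKM.

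In the middle of the pathway Aldoa, Tpi1 and Pgk1 were highest in replicate 3 and lowest in replicate 4 among the knockouts. Aldoa, the main aldolase, was at 473, 450, 516 and 394 FPKM in WT and 809, 661, 1340 and 169 in KLF10AKO. Replicates 1 to 3 lay above WT and replicate 4 below it, so the change of 0.37 ± 0.54 did not pass (adjusted p = 0.550), was 0.97 without replicate 4 (adjusted p = 0.00497) and was -1.43 with it alone (adjusted p = 0.00300). The second gene of that symbol was at 0.301 to 1.09 FPKM in WT, against 4.75, 4.22, 10.1 and 0 in KLF10AKO and did not pass. Aldoc, the brain-type aldolase, had 11, 0, 2 and 3 reads in WT and 47, 51, 43 and 58 in KLF10AKO, at most 1.01 FPKM, without overlap, and was under the filter. Without a filter its log2 change was 1.2 (adjusted p = 1.53e-04). Tpi1, which interconverts the triose phosphates, was at 181, 194, 200 and 155 FPKM in WT and 129, 111, 190 and 51.0 in KLF10AKO and did not pass (-0.74 ± 0.34, adjusted p = 0.0777). Only replicate 3 reached the WT range, and Tpi1 passed as lower with replicate 4 alone (-1.82, adjusted p = 0.00133) and without replicate 3 (-1.0, adjusted p = 0.0151). Pgk1, the first step that yields ATP, ranged from 73.3 to 86.3 FPKM in WT and from 52.4 to 111 in KLF10AKO (-0.05 ± 0.19, adjusted p = 0.841; -0.62 and 0.0101 with replicate 4 alone). Gapdh, often used as a reference gene, was listed at 1.33, 6.52, 0.871 and 1.48 FPKM in WT and 23.1, 2.96, 3.18 and 3.26 in KLF10AKO. These levels are far below those of its neighbours in the pathway. As many as 91 other annotated genes, 86 of them pseudogenes, match its transcripts at 95% identity or more over at least 200 bases. Per library those copies summed to 15.2 to 46.5 FPKM, so the level of Gapdh is uncertain. Its change of 1.25 ± 0.71 did not pass (adjusted p = 0.140) and was 1.76 without WT replicate 2 (adjusted p = 0.0424).

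By group means, phosphoglycerate mutase showed the widest exchange between isozymes, the Pgam2 share moving by 66.7 percentage points. In replicate 4 it moved by 12.2 points from the WT mean, less than Pdk4 (-30.9) or Hk2 (-28.4) in their families. Pgam1, the form of most tissues, was at 83.5, 81.3, 83.7 and 73.6 FPKM in WT and 31.2, 29.9, 33.8 and 30.5 in KLF10AKO. All 4 knockout libraries were low and alike, and Pgam1 fell by 1.35 ± 0.06 (adjusted p = 2.40e-07), or stood at 0.29 with scaling to adipocyte markers. Pgam2, the muscle form, was at 2.47, 1.50, 1.59 and 2.11 FPKM in WT, against 207, 153, 349 and 5.19 in KLF10AKO. All 4 knockout values lay above WT, but replicate 4 was far below the other 3. Its rise of 5.23 ± 1.13 (adjusted p = 0.00243) was 6.55 without replicate 4 and 1.26 with it alone (adjusted p = 0.0156), and it did not pass in a voom fit of recovered reads (5.52, adjusted p = 0.118). Pgam2 took 2.33% ± 0.574 of the family in WT (SD, n = 4) and 86.9, 83.7, 91.2 and 14.5% in the knockouts.

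Enolase also had a lower form of most tissues and a higher muscle form. Eno1, the form of most tissues, was at 118, 124, 125 and 112 FPKM in WT and 71.5, 72.2, 72.5 and 71.9 in KLF10AKO. It fell by 0.73 ± 0.06 (adjusted p = 3.66e-06), or stood at 0.92 with scaling to adipocyte markers, and its knockout values hardly varied (SD 0.418 FPKM, n = 4). Eno3, the muscle form, was at 8.62, 9.82, 8.51 and 11.4 FPKM in WT and 303, 237, 544 and 28.9 in KLF10AKO. Here replicate 4 was again the lowest knockout but above every WT library, and the rise was 4.20 ± 0.77 (adjusted p = 9.29e-04), 5.08 without replicate 4 and 1.55 with it alone (adjusted p = 0.00276). Eno2, known as the neuronal form, was at 1.01, 1.30, 0.807 and 1.82 FPKM in WT and 2.91, 3.42, 2.55 and 2.71 in KLF10AKO, without overlap and with replicate 3, not 4, the lowest knockout. Eno2 rose by 1.00 ± 0.17 (adjusted p = 7.10e-04), and by itself replicate 4 gave 0.92 (adjusted p = 0.0758). Eno3 went from 7.37% ± 1.23 of the enolase FPKM in WT (SD, n = 4) to 80.3, 75.8, 87.9 and 27.9%, and Eno1 from 91.7% ± 1.60 to 19.0, 23.1, 11.7 and 69.5%.

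The stretch upstream of the start differs between these isozymes, and 3 such windows are shown: both mutases, each with a single window, and the muscle enolase. Sequences are the 250 bases before the start in RefSeq on GRCm38.p6, on the gene's strand. Pgam1 is at chr19:41911621-41911870 (plus strand), Pgam2 at chr11:5803797-5804046 (minus strand) and Eno3 at chr11:70656926-70657175 (plus strand). Capitals mark matches on either strand to the MEF2 motif and to the E-box CANNTG, the site of the muscle regulatory factors and of many other factors, with no overlap between the marked matches.
Pgam1: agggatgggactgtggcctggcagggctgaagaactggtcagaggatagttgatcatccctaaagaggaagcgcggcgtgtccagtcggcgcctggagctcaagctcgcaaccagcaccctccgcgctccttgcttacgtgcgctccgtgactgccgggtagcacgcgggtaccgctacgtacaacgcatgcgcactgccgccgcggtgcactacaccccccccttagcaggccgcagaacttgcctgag
Pgam2: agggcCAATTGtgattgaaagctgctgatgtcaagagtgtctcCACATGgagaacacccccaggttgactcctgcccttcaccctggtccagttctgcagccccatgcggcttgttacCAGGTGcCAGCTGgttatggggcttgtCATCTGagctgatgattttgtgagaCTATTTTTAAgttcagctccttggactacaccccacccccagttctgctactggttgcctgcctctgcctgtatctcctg
Eno3: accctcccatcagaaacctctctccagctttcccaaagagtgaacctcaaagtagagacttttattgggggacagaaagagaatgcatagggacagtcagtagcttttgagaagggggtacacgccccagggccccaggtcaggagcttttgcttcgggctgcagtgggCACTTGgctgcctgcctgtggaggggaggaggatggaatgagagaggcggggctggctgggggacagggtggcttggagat
The Pgam2 window held 1 MEF2 match and 5 E-boxes, the Eno3 window 1 E-box and no MEF2 match, and the Pgam1 window neither. This contrast is not general among the isozymes. The 4 Pfkm windows held no MEF2 match, whereas a window of Pfkfb1, lower in KLF10AKO on the FPKM scale, held 1. The Pfkl window held 3 E-boxes, and the first of 3 Eno1 windows held 2 E-boxes and 9 CG. Of 32851 windows of the same length in the RefSeq table, 2.92% held a MEF2 match and 66.2% an E-box. The Pgam1 window held 22 CG dinucleotides, against 1 in Pgam2, 3 in Eno3 and a median of 6 over all windows. A match is a description of the letters and no evidence of binding. Of the 35 genes 34 had a window in that table.

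At the last steps of glycolysis Pkm and Ldha again were highest in replicate 3 and lowest in replicate 4 of the knockouts. Pkm, the pyruvate kinase gene of muscle, fat and leukocytes, was at 65.5, 74.2, 70.3 and 66.5 FPKM in WT and 132, 113, 181 and 67.1 in KLF10AKO. Replicate 4 lay within the WT range and the other 3 above it. The rise of 0.74 ± 0.25 (adjusted p = 0.0246) was 1.01 without replicate 4 and -0.04 with replicate 4 alone (adjusted p = 0.705), and did not pass without WT replicate 1, WT replicate 4 or KLF10AKO replicate 1 (0.68 to 0.73). Ldha, the lactate dehydrogenase subunit of muscle and glycolytic cells, was at 258, 249, 286 and 219 FPKM in WT and 223, 195, 313 and 111 in KLF10AKO and did not pass (-0.35 ± 0.27, adjusted p = 0.268), but passed as lower with replicate 4 alone (-1.18, adjusted p = 0.00431). Ldhb, the heart-type subunit, was at 48.4, 51.7, 51.4 and 42.2 FPKM in WT and 21, 22.3, 22.5 and 19.7 in KLF10AKO. The groups were well apart, and Ldhb fell by 1.16 ± 0.08 (adjusted p = 1.74e-06), or stood at 0.47 with scaling to adipocyte markers. The Ldha share was 83.9% ± 0.817 in WT (SD, n = 4) and 91.4, 89.7, 93.3 and 84.9% in the knockouts.

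All 5 subunit genes of the pyruvate dehydrogenase complex passed as lower on the FPKM scale, beside 34.9% of all fitted genes. From the fit to log2(FPKM + 0.5), WT was 1.48 to 2.66 times KLF10AKO. In all 5 every KLF10AKO value lay below every WT value, which held for 33% of all fitted genes. With replicate 4 alone the 5 changes ran from -1.76 for Dlat to -0.74 for Pdhb. Pdha1, the catalytic alpha subunit that the kinases phosphorylate, was at 60.9, 65.7, 62.2 and 55.7 FPKM in WT and 27.8, 26, 31.1 and 22.1 in KLF10AKO (-1.18 ± 0.10, adjusted p = 7.66e-06). Pdhb, its beta partner, was at 45.7, 48.2, 46.3 and 36.4 FPKM in WT and 30.3, 29.8, 32.3 and 26.1 in KLF10AKO (-0.56 ± 0.10, adjusted p = 8.24e-04). Dlat, the acetyltransferase that forms the core, was at 35.7, 34.0, 38.4 and 30.5 FPKM in WT and 13, 12.5, 16.1 and 9.86 in KLF10AKO (-1.41 ± 0.14, adjusted p = 1.54e-05). In each of these genes replicate 3 was the highest knockout library and replicate 4 the lowest. Dld, the dehydrogenase that this complex shares with other oxoacid dehydrogenase complexes, was at 64.1, 68.4, 69.7 and 56.7 FPKM in WT and 31.0, 31.3, 34.5 and 26.7 in KLF10AKO (-1.06 ± 0.09, adjusted p = 8.95e-06). Pdhx, which tethers Dld to the core, was at 9.59, 10.6, 11.4 and 8.66 FPKM in WT and 6.43, 6.21, 8.08 and 5.16 in KLF10AKO (-0.61 ± 0.13, adjusted p = 0.00243). With scaling to adipocyte markers the 5 changes were 0.45, 1.07, 0.21, 0.58 and 0.97 in that order, below the all-gene median of 1.56 under that scaling.

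The kinases that inactivate the complex moved in opposite directions. Pdk4, the form induced by fasting and prominent in fat, muscle and heart, was at 258, 273, 262 and 274 FPKM in WT and 106, 86.8, 152 and 41.9 in KLF10AKO. No knockout library reached WT, and the knockouts differed among themselves by several times. Pdk4 fell by 1.60 ± 0.33 (adjusted p = 0.00176), by 2.65 with replicate 4 alone (adjusted p = 5.62e-05), and was at 0.05 with scaling to adipocyte markers. Pdk2, the most widely expressed form, was at 40.2, 37.7, 39.9 and 40.7 FPKM in WT and 24.4, 23.7, 36.1 and 15.2 in KLF10AKO. It fell by 0.73 ± 0.21 (adjusted p = 0.0125, and 0.91 with scaling to adipocyte markers). Pdk1, the form induced by hypoxia, was at 5.73, 6.42, 6.0 and 5.83 FPKM in WT and 12.5, 12.7, 11.0 and 13.9 in KLF10AKO. All 4 knockouts were high, replicate 4 highest and replicate 3 lowest, and Pdk1 rose by 1.00 ± 0.08 (adjusted p = 3.65e-06). Pdk3 was at 2.77, 2.75, 3.04 and 2.21 FPKM in WT and 6.96, 6.79, 4.82 and 7.06 in KLF10AKO, again lowest in replicate 3, and rose by 1.11 ± 0.13 (adjusted p = 6.06e-05). The summed kinase level went from 315 ± 7.46 to 140 ± 51.8 FPKM (SD, n = 4), and the Pdk4 share from 84.6% ± 0.572 in WT to 70.7, 66.8, 74.5 and 53.7%. The Pdk1 share went from 1.90% ± 0.0857 to 8.34, 9.78, 5.40 and 17.8%, and the Pdk2 share from 12.6% ± 0.569 to 17.9% ± 1.27 (SD, n = 4).

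Of the phosphatases that reactivate the complex, Pdp1 was at 4.84, 4.83, 5.04 and 4.79 FPKM in WT and 3.46, 3.65, 4.75 and 3.71 in KLF10AKO. Replicate 3 lay just under the lowest WT library, and Pdp1 fell by 0.30 ± 0.09 (adjusted p = 0.0146), but did not pass as TPM (-0.12), and was at 1.24 with scaling to adipocyte markers. Pdp2 was at 2.52, 2.87, 2.17 and 2.25 FPKM in WT and 2.68, 2.37, 2.48 and 2.58 in KLF10AKO and did not pass (0.04 ± 0.09, adjusted p = 0.692). The Pdp1 share of the summed phosphatase FPKM was 66.6% ± 3.12 in WT and 60.4% ± 3.91 in KLF10AKO (SD, n = 4), and these ranges overlapped.

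The order of the knockout libraries ran through the list. In 19 of the 35 genes the order was replicate 3, 1, 2, 4 from high to low, and over all fitted genes 14.3% had that order. The reverse order held for Hk1, Aldoc and Pdk1, and for 16.0% of all fitted genes. The summed skeletal muscle, adipocyte and endothelium markers had the first order, and the summed B and T cell markers the reverse. In Pfkm, Aldoa, Tpi1, Pgam2, Eno3, Pkm, Ldha and Pdk4, the members whose mean over replicates 1 to 3 was more than 2 times replicate 4 (Gapdh, high in replicate 1 alone, was left out), the excess over replicate 4 was compared between libraries. In replicate 1 it was 53.1 to 58.8% of the excess in replicate 3, and in replicate 2 it was 40.0 to 43.2%. The summed skeletal muscle markers gave 56.4% and 42.7%, the adipocyte markers 52.4% and 49.1%, and the B cell markers, lowest in replicate 3, 56.2% and 38.9% of their shortfall there. Pdk1, which ran in the reverse order too, gave 49.5% and 40.9%, the former below the range of the members. These members were chosen for their excess over replicate 4, and the nearness of any marker sum to their ranges was not tested. Among the muscle markers was Ckm, the muscle creatine kinase chosen here after its values were seen, at 304, 227, 548 and 0.0389 FPKM in KLF10AKO and at most 0.0686 in WT. The part of muscle transcripts in these levels was not tested. Summed over the 35 genes, the level was 1948 to 2238 FPKM in WT and 2537, 2132, 3816 and 924 FPKM in KLF10AKO replicates 1 to 4. Replicate 3 was the highest of the 8 libraries and replicate 4 the lowest, while replicate 2 lay within the WT range. Aldoa alone gave 1340 FPKM of the sum in replicate 3. The knockouts had the order of the muscle, adipocyte and endothelium sums, and the part of each was not tested.

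**Figure D4:**
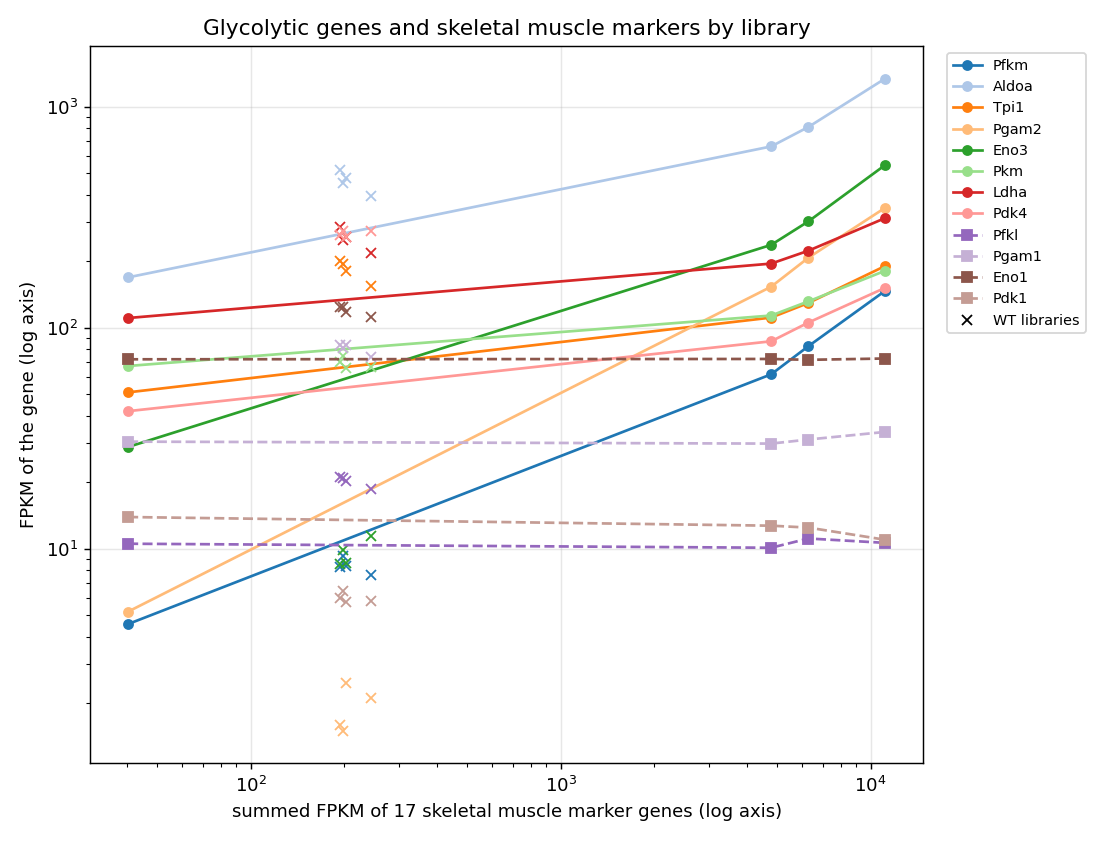
FPKM of 12 of the genes (y axis, log) against the summed FPKM of 17 skeletal muscle markers (x axis, log), with the 4 KLF10AKO libraries joined by lines and the 4 WT libraries as crosses of the same colour. Pgam2, Pfkm and Eno3 go from 5.19, 4.56 and 28.9 FPKM at a muscle sum of 40.3 to 349, 147 and 544 FPKM at a sum of 11139, while Pfkl, Pgam1, Eno1 and Pdk1 (dashed) hardly vary among the knockouts.

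Lower genes differed in how much they varied among the knockouts. Hk2, Pfkfb3, Pdha1, Pdhb, Dlat, Pdhx, Pdk2 and Pdk4 had the order of the muscle sum, which was also that of the adipocyte and endothelium sums. Pfkl, Pgam1 and Eno1 ranged from 10.1 to 11.1, from 29.9 to 33.8 and from 71.5 to 72.5 FPKM over the 4 knockout libraries, in which the muscle sum ranged from 40.3 to 11139. Their falls with replicate 4 alone were -0.91, -1.38 and -0.73, about as large as with all 4 libraries. The adipocyte marker sum was lower in all 4 knockouts as well, and its part in these falls was not tested. Pdk1 (1.15), Pdk3 (1.25) and Hk1 (0.39) were higher in replicate 4 alone, as were the muscle forms Eno3 (1.55) and Pgam2 (1.26). In that library the muscle sum was lowest and the B and T cell sums, at 3154 and 832 FPKM, were highest. The part of lymphocytes was not tested.

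Genes around the pathway were read from a list of 44, of which 34 were fitted, 7 passed as higher (20.6%, beside 39.4% of all genes) and 20 as lower (58.8%, beside 34.9%), with a median log2 change of -0.64. With scaling to adipocyte markers 30 were higher and 2 lower, beside 87.5% and 1.19% of all genes. Myc, a transcription factor that drives glycolytic genes, was at 3.62, 3.41, 3.73 and 3.13 FPKM in WT and 19.0, 18.5, 17 and 19.9 in KLF10AKO, and rose by 2.26 ± 0.07 (adjusted p = 1.95e-08). Adpgk, an ADP-dependent glucokinase, rose from 3.30 ± 0.197 to 6.65 ± 0.625 FPKM (SD, n = 4, log2 change 0.91, adjusted p = 7.01e-06). The other 6 of the 8 genes of lowest p fell, and are given as FPKM levels with SD and n = 4. With scaling to adipocyte markers Pcx was still lower (-0.66) and G6pdx did not pass (-0.12), while Pgd, Pygl, Slc16a1 and Epas1 turned to 0.59, 0.19, 0.47 and 0.54. Pcx, the pyruvate carboxylase that feeds fatty acid synthesis in fat, went from 196 ± 12.8 to 40.0 ± 7.85 (adjusted p = 6.99e-07). G6pdx and Pgd, which make NADPH in the pentose phosphate pathway, went from 109 ± 8.42 to 31.9 ± 3.37 and from 46.2 ± 3.95 to 22.1 ± 1.56. Pygl, the liver-type glycogen phosphorylase, went from 22.5 ± 0.504 to 8.21 ± 1.18, Slc16a1, a lactate and pyruvate carrier, from 19.1 ± 1.88 to 8.44 ± 0.495, and Epas1, a hypoxia-inducible factor, from 131 ± 5.91 to 60.8 ± 4.95. Pygm, the muscle glycogen phosphorylase, chosen here after its values were seen, was at 1.19, 1.76, 1.49 and 1.52 FPKM in WT, against 165, 126, 299 and 3.10 in KLF10AKO, in the order seen for Pgam2.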

How the data were processed

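Poly(A) RNA from total RNA of fat pad tissue was sequenced in 8 libraries, per the labels' protocols. The authors' deposited values are FPKM with a gene length for each gene. The submitters' processing notes name the mm10 genome, edgeR 3.22.5, featureCounts 1.5.0-p3 and HISAT2 2.0.5. What each tool did, which annotation was used and whether counting used strand is not given in the sources used here. Multiplied by gene length, 100% of the values were whole reads (within 0.01 read) times a constant of the library, which gave the reads back. Read totals over the size implied by that constant were 1.05 to 1.09 in WT and 0.901 to 0.939 in KLF10AKO.

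Groups were compared with limma 3.58.1 (lmFit, eBayes with trend) in R 4.3.3 on log2(FPKM + 0.5) of the 16012 genes with a mean FPKM of at least 0.5, without covariates. Tests were two-sided, with p adjusted by Benjamini-Hochberg over all these genes, with a threshold of 0.05. The labels tie no library to an animal, so p-values measure the spread between libraries. On simulated data the fit was tested for recovery of known changes. Isozyme shares are percent of the summed FPKM of a family, without a test.

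The members and lists were chosen with earlier results of these data known. Values per library are given for rate-controlling steps and for isozymes whose share moved by over 5 percentage points or whose KLF10AKO replicates 1 to 3 and 4 differed by over 2 times. Of the surrounding pathway genes, the 8 passing with lowest p are named. Of the 16 adipocyte markers listed, 15 were found in the table under their symbols. A further marker list is not reported here. Of the 36 table lines of the members, 12 overlap exons of another annotated gene in GENCODE M21 and 9 those of a coding gene, mostly on the other strand (Pfkm with Senp1, Aldoa with Fam57b, Gapdh with Iffo1); without a known strand setting such reads cannot be told apart. Near copies were searched with BLAST 2.17.0. Members other than Gapdh had them too, with the highest summed FPKM of the copies in any library in brackets. Among these were Eno1 with 4 genes (12.2), Tpi1 with 1 (13.0), Ldha with 5 (2.30) and Pgam1 with 1 (2.12). Alternatives were a pseudocount of 0.1 or 1, fitting without a filter or with a mean FPKM of 2 or more, TPM, quantile normalization, scaling to adipocyte markers (geometric mean), a replicate block, each library left out, KLF10AKO replicate 4 alone (assumed to vary like WT) and, added after seeing the data, voom on recovered reads.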

Additional observations from a re-analysis of the deposited data

Results flagged for a closer look

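In all, 3 values lay far from the other libraries of their group, of 72 groups of 4 examined, and chance alone gives about 1 in 20 groups. Gapdh in WT replicate 2 was at 6.52 FPKM, beside 0.871 to 1.48 in the other WT libraries. Gapdh in KLF10AKO replicate 1 was at 23.1 FPKM, beside 2.96 to 3.26 in the other knockouts. Pdk3 in KLF10AKO replicate 3 was at 4.82 FPKM, beside 6.79 to 7.06 in the other knockouts.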

How the results depend on the processing

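The direction of the lower members depended on scaling to adipocyte markers, which moved all genes up; TPM and quantile normalization changed the sign of no member that passed with FPKM. TPM moved the median of all genes by 0.20 on the log2 scale (63.4% of passing genes higher), quantile normalization by -0.20 (41.2%) and adipocyte marker scaling by 1.51 (98.7%), beside 53.0% with FPKM. With the last, 14014 genes were higher and 191 lower, members 32 and 0, and surrounding pathway genes 30 and 2. Members that changed sign then had log2 changes of 0.61 for Hk2, 1.30 for Hk3, 0.71 for Pfkl, 1.47 for Pfkp, 0.38 for Pfkfb1, 1.34 for Pfkfb2, 0.17 for Pfkfb3, 1.49 for Pfkfb4, 0.91 for Tpi1, 1.60 for Pgk1, 0.29 for Pgam1, 0.92 for Eno1, 1.30 for Ldha, 0.47 for Ldhb, 0.45 for Pdha1, 1.07 for Pdhb, 0.21 for Dlat, 0.58 for Dld, 0.97 for Pdhx, 0.91 for Pdk2, 0.0454 for Pdk4 and 1.24 for Pdp1. With KLF10AKO replicate 4 alone, members higher numbered 5 and surrounding genes higher 4, and Pfkm (-0.81), Aldoa (-1.43) and Pkm (-0.0411) changed sign. Values near 0 changed sign as TPM (Pfkp 0.0757, Pfkfb2 0.11, Pfkfb4 0.11, Pgk1 0.16), with quantile normalization (Pgk1 0.16, Pdp2 -0.25), and with a library left out (Pfkfb4 0.00296 and Pgk1 0.15 without KLF10AKO replicate 4, beside lows of -0.18 and -0.21 without replicate 3; Aldoa -0.0227 without KLF10AKO replicate 3; Pdp2 -0.00547 without WT replicate 3). With each library left out in turn, genes higher ranged from 5991 to 6269, genes lower from 5307 to 5593, members higher from 5 (without WT replicate 4) to 9, members lower from 15 to 17, surrounding genes higher from 6 to 8 and lower at 20, and shares that moved by over 5 percentage points from 16 to 18. Same-numbered libraries hardly deviated together, with correlations of 0.02, 0.00, 0.03 and 0.01. For WT replicates 1, 3 and 4 the same-numbered knockout was the closest, and WT replicate 2 was closer to KLF10AKO replicate 4. With the replicate block 6220 genes were higher and 5506 lower. Members were then 9 and 16, the added one being Tpi1 (-0.74, adjusted p = 0.0359). Voom on recovered reads called 6139 genes higher and 5594 lower, members 8 and 15. The planned edgeR fit was not run, because the deposited unit is FPKM. Where a cause is not given above, it was not tested. At this depth the WT level of Aldoc rests on at most 11 reads a library.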
